A study of Homo sapiens with 9 samples.

Results

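The transcripts described here encode 10 heat-shock chaperones, chosen by gene symbol: HSPA8, HSPA1A, HSPA1B, HSPH1, DNAJA1, DNAJB1, HSP90AA1, HSP90AB1, HSPD1 and HSPE1. They are 10 of the 60564 genes in a table of RNA-seq levels from BxPC3 cells, a long-established human line grown from a ductal adenocarcinoma of the pancreas. The 9 libraries fall into 3 groups of 3: cells given WB436B at 0.1 µM (a compound known by that code name only), cells given a small interfering RNA (siRNA) against STAT3, and vehicle-treated cells. All were grown in the same serum-containing medium. The sources used here do not state how long treatment lasted, what the vehicle was or whether a non-targeting siRNA was used, so an effect of transfection and the loss of STAT3 cannot be told apart. The labels call the libraries of a group biological replicates and say no more about separate cultures, so a p-value here reflects only how far the libraries of a group vary, which may be technical.

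Heat-shock chaperones bind unfolded stretches of other proteins and use ATP to release them for folding or transfer. In the cytosol, J-domain proteins hand a client to HSP70, exchange factors reset HSP70, and HSP90 with its co-chaperones finishes the folding of kinases and hormone receptors. Heat-shock factor 1 (HSF1) drives many of these genes when proteins unfold, by binding heat-shock elements, which are inverted repeats of the bases GAA. HSPD1 and HSPE1 encode the HSP60 and HSP10 chaperonin of the mitochondrial matrix, so the name cytosolic fits the other 8 genes only.

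Levels are FPKM, fragments scaled by transcript length and by the mapped fragments of the library, and can be compared between genes. A gene was called when its adjusted p was below 0.05, by limma on log2(FPKM + 1) with Benjamini-Hochberg adjustment over the 12747 genes that reached 1 FPKM in at least 3 libraries. All 10 chaperones were among them. Fold changes are given as log2 differences on that scale.

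The STAT3 siRNA libraries matched their label in STAT3 level, while nothing used here checks the WB436B label against the vehicle label. STAT3 had 10.5, 10.9 and 10.8 FPKM in the WB436B libraries, 2.98, 2.58 and 3.02 FPKM in the STAT3 siRNA libraries, and 16.4, 15.8 and 15.1 FPKM in the vehicle libraries. STAT3 was thus at 18.1% of the vehicle level after siRNA (adjusted p = 1e-07) and at 68.0% under WB436B (adjusted p = 6.5e-05). The table gives no counts, but the steps of its low values put depth at about 20400000, 18500000 and 16400000 fragments in the WB436B libraries, 19100000, 17000000 and 18400000 in the STAT3 siRNA libraries, and 47200000, 15600000 and 14900000 in the vehicle libraries. In log2(FPKM + 1) over the tested genes, libraries correlated at 0.980 to 0.988 within a group and 0.918 to 0.941 between groups. The 8 epithelial and ductal markers, keratins and EPCAM among them, summed to 1102 to 1291 FPKM over the 9 libraries, but single markers moved apart beneath that sum. KRT19 averaged 334 ± 12.4 FPKM under WB436B, 503 ± 13.0 FPKM after siRNA and 710.2 ± 24.0 FPKM in vehicle (SD, n = 3 each). KRT7 averaged 436 ± 34.8 FPKM under WB436B, 296 ± 15.2 FPKM after siRNA and 251 ± 16.6 FPKM in vehicle. MUC1 averaged 1.80 ± 0.240 FPKM under WB436B, 1.64 ± 0.227 FPKM after siRNA and 8.18 ± 0.080 FPKM in vehicle. The 5 leukocyte markers summed to 3.13 to 3.55 FPKM in the WB436B libraries, 3.86 to 6.11 FPKM in the STAT3 siRNA libraries and 5.90 to 8.26 FPKM in the vehicle libraries. The 6 fibroblast markers summed to at most 0.881 FPKM in the WB436B libraries, 3.77 FPKM in the STAT3 siRNA libraries and 2.12 FPKM in the vehicle libraries. The 4 endothelial markers reached at most 1.05 FPKM in any library, and 4 of the 6 acinar and endocrine markers were listed at 0 in all 9. Their part in the results was not tested.

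Promoter sequences are shown first, since the heat-shock element is the feature that textbook accounts give these genes in common. RefSeq (GRCh38.p14) gave 16 windows for the 10 genes, each covering 250 bases before to 50 bases after an annotated start. A match of 2 units is GAANNTTC or TTCNNGAA, and a match of 3 units is GAANNTTCNNGAA or TTCNNGAANNTTC. Each of these patterns reads the same on both strands or has its reverse complement in the pair, and a match of 3 units always holds overlapping matches of 2 units. Positions are counted from the annotated start. Capitals below mark the matches. HSPA8, the gene with the largest change of the 10 under WB436B, is shown with HSP90AA1, which also holds a match of 3 units, and with DNAJB1, HSPA1A and HSPA1B, which hold matches of 2 units only and were not higher under the compound. These windows were chosen with the changes known, and they do not show every combination. HSPH1, which rose by 1.77 under WB436B, and HSPE1, which rose by 0.78, held no match of either kind in their windows. The windows are HSPA8 at chr11:123062087-123062386 (minus strand), the second HSP90AA1 start at chr14:102086995-102087294 (minus strand), the second DNAJB1 start at chr19:14518348-14518647 (minus strand), HSPA1A at chr6:31815293-31815592 (plus strand) and HSPA1B at chr6:31827488-31827787 (plus strand).
HSPA8: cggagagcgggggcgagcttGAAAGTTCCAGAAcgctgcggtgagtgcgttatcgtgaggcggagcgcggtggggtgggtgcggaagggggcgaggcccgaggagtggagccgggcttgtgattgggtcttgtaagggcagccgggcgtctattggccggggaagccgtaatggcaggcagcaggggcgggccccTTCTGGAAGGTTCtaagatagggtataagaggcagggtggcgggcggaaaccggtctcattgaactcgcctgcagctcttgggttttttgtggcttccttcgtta
HSP90AA1: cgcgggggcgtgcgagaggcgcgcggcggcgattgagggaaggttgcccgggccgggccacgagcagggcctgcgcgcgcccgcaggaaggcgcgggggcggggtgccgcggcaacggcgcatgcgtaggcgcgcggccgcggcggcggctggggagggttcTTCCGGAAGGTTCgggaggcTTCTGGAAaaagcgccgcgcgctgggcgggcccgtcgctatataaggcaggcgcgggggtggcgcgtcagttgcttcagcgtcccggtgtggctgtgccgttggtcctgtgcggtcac
DNAJB1: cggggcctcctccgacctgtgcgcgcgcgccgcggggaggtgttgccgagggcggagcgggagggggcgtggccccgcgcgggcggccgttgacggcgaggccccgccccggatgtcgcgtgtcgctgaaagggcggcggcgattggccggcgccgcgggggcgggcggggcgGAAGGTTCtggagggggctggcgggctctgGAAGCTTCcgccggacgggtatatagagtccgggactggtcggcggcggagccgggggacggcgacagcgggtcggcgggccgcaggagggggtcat
HSPA1A: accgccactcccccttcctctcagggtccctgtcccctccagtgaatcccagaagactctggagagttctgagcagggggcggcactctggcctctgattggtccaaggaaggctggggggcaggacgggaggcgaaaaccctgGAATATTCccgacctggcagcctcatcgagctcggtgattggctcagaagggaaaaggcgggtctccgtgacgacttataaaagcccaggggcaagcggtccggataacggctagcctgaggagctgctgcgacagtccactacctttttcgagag
HSPA1B: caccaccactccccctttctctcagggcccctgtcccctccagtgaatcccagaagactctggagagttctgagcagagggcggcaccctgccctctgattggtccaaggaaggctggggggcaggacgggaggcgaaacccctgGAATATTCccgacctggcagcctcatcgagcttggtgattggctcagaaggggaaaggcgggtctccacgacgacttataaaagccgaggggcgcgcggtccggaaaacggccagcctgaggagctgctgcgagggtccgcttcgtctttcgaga

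A match of 3 units stood in a window of 5 of the 10 genes: HSPA8, HSP90AA1, HSP90AB1, DNAJA1 and HSPD1. Among all RefSeq windows of this length, 0.49% of 35116 held one. Matches of 2 units stood in windows of 8 of the 10 genes, and in 13.5% of all windows. Some of the 10 genes have several windows, so shares per gene are also given: 0.608% of 27305 genes had a match of 3 units and 16.2% had one of 2 units. HSPA8 held both of its matches of 3 units upstream of the start, at -230 to -218 (GAAAGTTCCAGAA) and at -55 to -43 (TTCTGGAAGGTTC). HSP90AB1 held a pair in the third of its windows, TTCTGGAAGATTC at -165 and TTCTGGAAGCTTC at -112. HSPD1 held overlapping matches in its second window, TTCTGGAAAGTTC and GAAAGTTCTGGAA, which together covered -245 to -228. DNAJA1 held GAACTTTCCAGAA just inside the transcript, at 4 to 16. HSPH1 and HSPE1 held no match in their windows, which says only that these letters are not there. HSPA1A and HSPA1B held the same match of 2 units, GAATATTC, and their windows were identical at 277 of 301 aligned positions. The HSPE1 window overlapped the first HSPD1 window by 204 bases on the opposite strand, with the starts 105 bases apart. The second HSPD1 start lay 539 bases from the HSPE1 start. The HSPD1 matches lie between these starts, upstream of HSPE1 but outside its window. Only exact letters were counted. In HSPA1A and HSPA1B the match GAATATTC is followed by ccgac, and in DNAJB1 GAAGGTTC is followed by tggag. An ending in GAA there would have made a match of 3 units. A match is a description of the letters and not a bound site, and whether matches go with the changes was not tested.

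**Figure D1:**
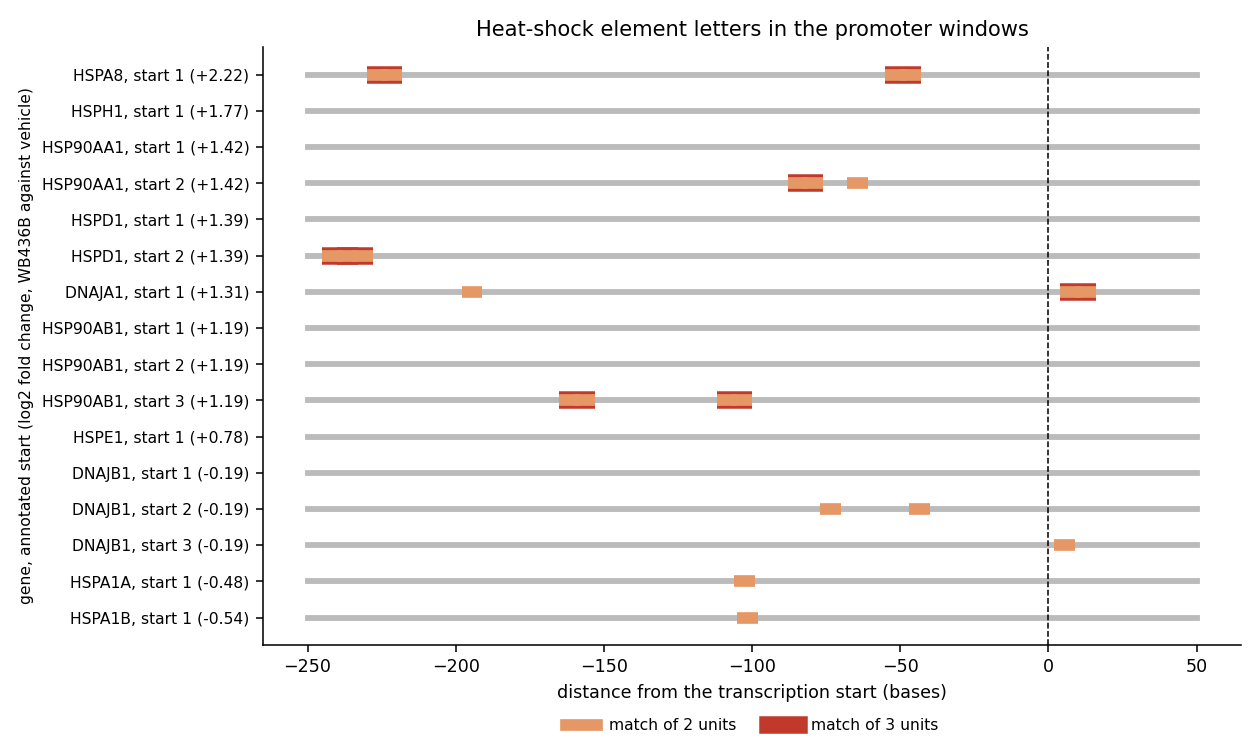
Positions of heat-shock element letters in the 16 promoter windows, in bases from the annotated start (dashed line), with genes ordered by their log2 fold change under WB436B against vehicle. Matches of 3 units stand in windows of HSPA8, HSP90AA1, HSPD1, DNAJA1 and HSP90AB1, whose changes run from 2.22 to 1.19, while DNAJB1, HSPA1A and HSPA1B hold matches of 2 units only. HSPH1 (1.77) and HSPE1 (0.78) hold no match in their windows, and the HSPD1 matches lie upstream of the HSPE1 window.

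Under WB436B, 7 of the 10 transcripts rose against vehicle, 2 fell and 1 was not called. In bulk RNA, more transcript in each cell and more cells with the transcript cannot be told apart. Of all tested genes, 24.9% were called higher and 41.1% lower in the same comparison. At least 2-fold rises, a log2 difference of 1 or more, were seen for HSPA8, HSPH1, HSP90AA1, HSPD1, DNAJA1 and HSP90AB1, 6 of the 10, against 2.54% of all tested genes. The median change of the 10 was 1.25, beside -0.13 over all tested genes. After STAT3 siRNA, 8 rose, 1 fell and 1 was not called, against 29.8% called higher and 22.3% lower among all genes. None of the 10 rose as much as 2-fold after siRNA, where 1.04% of all genes did, and the median change was 0.43, beside 0.06 over all genes. All 3 WB436B libraries lay above all 3 vehicle libraries for 7 transcripts and below them for 2, as was so for 26.8% and 43.3% of all tested genes. The siRNA libraries lay above the vehicle libraries for 8 and below for 1, as was so for 35.1% and 25.3% of all genes. Both comparisons share the vehicle libraries. The standard errors of the 30 member differences lay between 0.037 and 0.131.

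**Figure D2:**
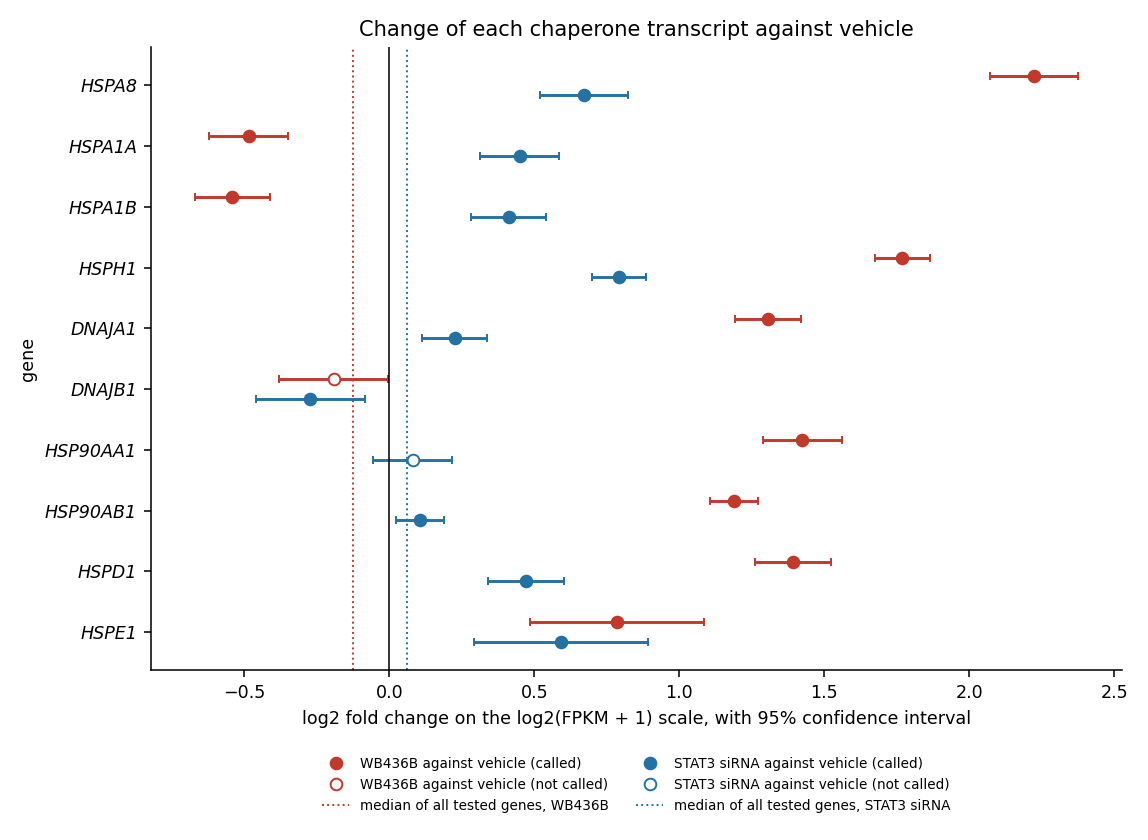
Log2 fold change of each transcript against vehicle, with its 95% confidence interval, for WB436B (red) and STAT3 siRNA (blue). Filled points passed the threshold and dotted lines mark the median of all tested genes. HSPA8, HSPH1, HSP90AA1, HSPD1, DNAJA1 and HSP90AB1 lie above 1 under WB436B, while HSPA1A and HSPA1B lie below 0 under WB436B and above 0 after siRNA.

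The HSP70 genes moved in opposite directions under WB436B. HSPA8 encodes HSC70, the HSP70 that cells make without stress. It had 582, 553 and 502 FPKM in the WB436B libraries, 185, 184 and 186 FPKM in the STAT3 siRNA libraries, and 111, 112 and 125 FPKM in the vehicle libraries. The 3 groups did not overlap, with the WB436B libraries far above the others. The difference from vehicle was 2.22 ± 0.066 (SE, adjusted p = 7.1e-08) under WB436B, a ratio of means of 4.70, and HSPA8 stood at rank 11 of the 12747 genes ordered by that change. After STAT3 siRNA the difference was 0.67 ± 0.066 (SE, adjusted p = 6.5e-05). Of the 50-base words in its reference transcript, 15.4% were shared with other genes, mostly with processed pseudogenes.

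HSPA1A and HSPA1B are a neighbouring gene pair for the stress-inducible HSP70, with nearly identical coding sequences. HSPA1A had 54.2, 54.1 and 56.3 FPKM in the WB436B libraries, 102, 112 and 103 FPKM in the STAT3 siRNA libraries, and 83.3, 75.7 and 72.8 FPKM in the vehicle libraries. HSPA1B had 49.1, 49.8 and 51.6 FPKM in the WB436B libraries, 97.2, 103 and 94.1 FPKM in the STAT3 siRNA libraries, and 78.5, 73.3 and 68.8 FPKM in the vehicle libraries. For both genes every WB436B library lay below every vehicle library and every siRNA library lay above. HSPA1A fell by 0.48 under WB436B (SE 0.060, adjusted p = 0.00012) and rose by 0.45 after siRNA (SE 0.060, adjusted p = 0.00034). HSPA1B fell by 0.54 under WB436B (SE 0.056, adjusted p = 4.4e-05) and rose by 0.41 after siRNA (SE 0.056, adjusted p = 0.00041). Of the 50-base words in HSPA1A, 72.6% also occur in HSPA1B, so how the fragments were divided between the pair is uncertain. Summed into 1 row, the pair fell by 0.52 under WB436B (adjusted p = 6.9e-05) and rose by 0.43 after siRNA (adjusted p = 0.00035). Over all alternative settings, scalings included, the WB436B difference of HSPA1A lay between -0.63 and -0.32 and was always called.

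The make-up of the HSP70 rows differed between groups. HSPA8 gave 84.9%, 84.2% and 82.3% of the summed FPKM of HSPA8, HSPA1A and HSPA1B in the WB436B libraries, 48.1%, 46.1% and 48.6% in the STAT3 siRNA libraries, and 40.8%, 42.9% and 46.9% in the vehicle libraries. The sum itself averaged 651 ± 38.3 FPKM under WB436B, 389 ± 9.11 FPKM after siRNA and 267 ± 6.28 FPKM in vehicle (SD, n = 3 each).

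HSPH1 encodes HSP110, a relative of HSP70 that acts as its nucleotide exchange factor and helps to dissolve aggregates. It had 36.1, 37.3 and 37.8 FPKM in the WB436B libraries, 18.5, 17.8 and 18.8 FPKM in the STAT3 siRNA libraries, and 9.91, 10.5 and 10.1 FPKM in the vehicle libraries. The 3 groups did not overlap. HSPH1 rose by 1.77 ± 0.041 (SE, adjusted p = 3e-08) under WB436B and by 0.79 ± 0.041 (SE, adjusted p = 2.2e-06) after siRNA, the largest siRNA change of the 10. None of its 50-base words occurred in another gene.

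The J-domain partners differed from each other. DNAJA1, which delivers clients to HSP70, had 202, 191 and 195 FPKM in the WB436B libraries, 92.7, 88.7 and 95.3 FPKM in the STAT3 siRNA libraries, and 77.7, 75.5 and 83.2 FPKM in the vehicle libraries. Every WB436B library lay above the rest, and the siRNA libraries lay just above vehicle. DNAJA1 rose by 1.31 under WB436B (SE 0.049, adjusted p = 1.9e-07) and by 0.23 after siRNA (SE 0.049, adjusted p = 0.0049). DNAJB1 is the HSP40 that is induced strongly by heat and also holds HSF1 in check together with HSP70. DNAJB1 had 25.3, 26.8 and 26.9 FPKM in the WB436B libraries, 26.1, 24.0 and 24.5 FPKM in the STAT3 siRNA libraries, and 26.2, 32.4 and 32.5 FPKM in the vehicle libraries. The first vehicle library lay among the WB436B libraries, so those groups overlapped. The WB436B difference was -0.19 (95% interval -0.379 to -0.0047, adjusted p = 0.067) and was not called. Without the first vehicle library it was -0.29 (adjusted p = 0.0023). After siRNA DNAJB1 fell by 0.27 (SE 0.082, adjusted p = 0.022), a call lost in 5 of 23 alternative settings, 4 of them with the second or the third vehicle or siRNA library left out (adjusted p up to 0.076).

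**Figure D3:**
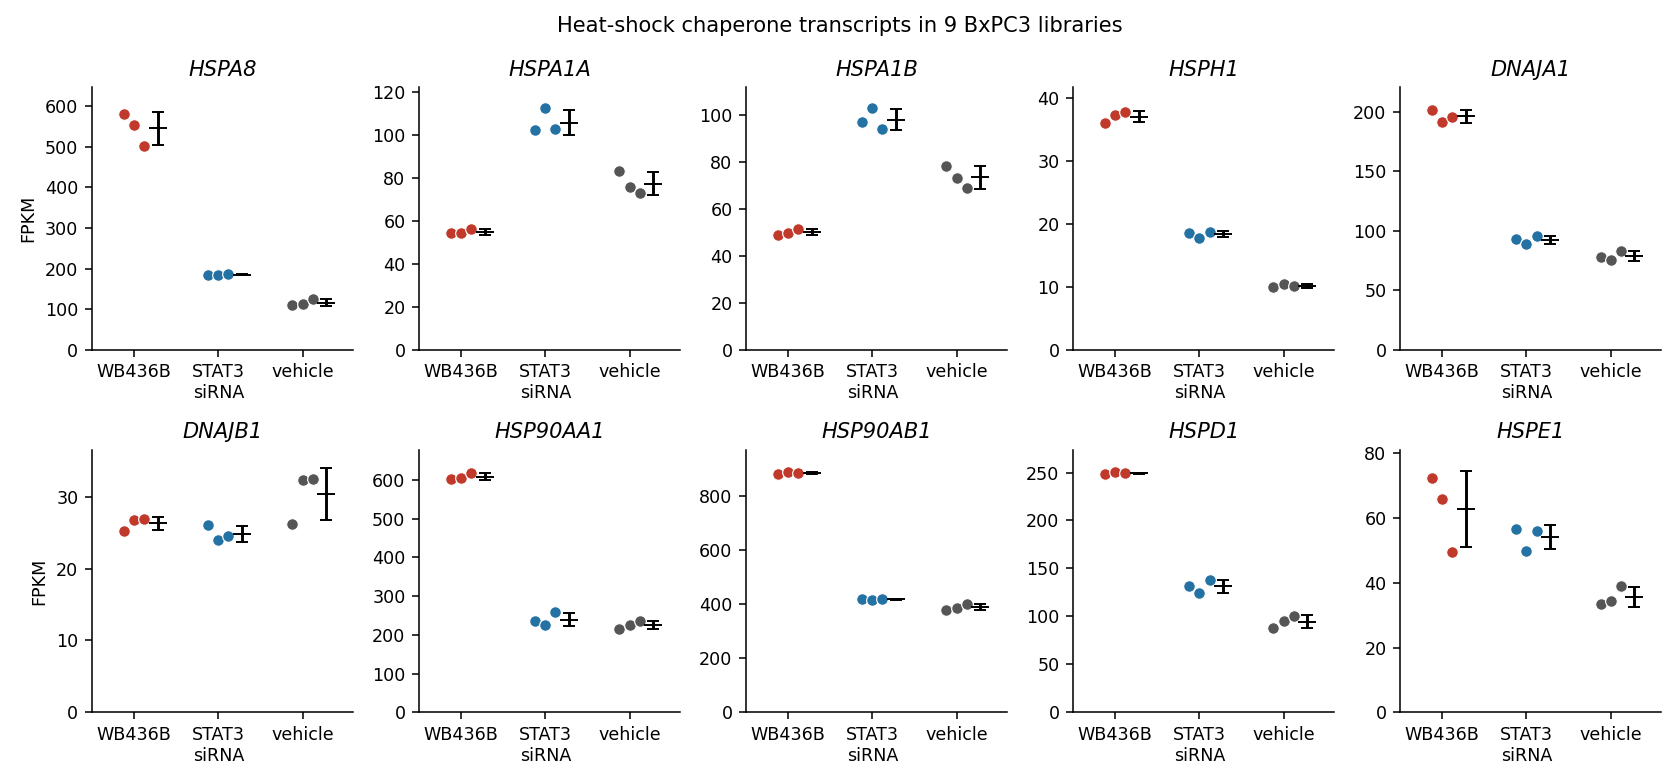
FPKM of each of the 10 transcripts in the WB436B, STAT3 siRNA and vehicle libraries (points), with the mean and SD of each group (bars), on axes that start at 0. HSPA8 reaches 502 to 582 FPKM under WB436B against 111 to 125 FPKM in vehicle, and HSPA1A and HSPA1B are lowest under WB436B and highest after siRNA.

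Both cytosolic HSP90 genes rose more than 2-fold under WB436B and little or not measurably after siRNA. HSP90AA1, the form that heat induces, had 602, 604 and 619 FPKM in the WB436B libraries, 235, 224 and 259 FPKM in the STAT3 siRNA libraries, and 216, 226 and 237 FPKM in the vehicle libraries. The WB436B libraries lay far above the other 6, and siRNA and vehicle overlapped. HSP90AA1 rose by 1.42 under WB436B (SE 0.060, adjusted p = 3.1e-07). The siRNA difference was 0.08 (95% interval -0.056 to 0.217, adjusted p = 0.29) and was not called. HSP90AB1, the constitutive form, had 881, 891 and 887 FPKM in the WB436B libraries, 419, 417 and 418 FPKM in the STAT3 siRNA libraries, and 378, 387 and 400.2 FPKM in the vehicle libraries. The groups did not overlap, and the siRNA and vehicle groups were close. HSP90AB1 rose by 1.19 under WB436B (SE 0.037, adjusted p = 8.4e-08). HSP90AB1 rose by 0.11 after siRNA (SE 0.037, adjusted p = 0.039), but this call was lost in 13 of 23 alternative settings. The sign turned under quantile scaling (-0.12, adjusted p = 0.096).

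The mitochondrial chaperonin pair rose in both conditions. HSPD1 (HSP60), the barrel subunit, had 249, 250.04 and 249 FPKM in the WB436B libraries, 132, 125 and 138 FPKM in the STAT3 siRNA libraries, and 88.0, 95.02 and 101 FPKM in the vehicle libraries. The groups did not overlap. HSPD1 rose by 1.39 under WB436B (SE 0.057, adjusted p = 2.8e-07) and by 0.47 after siRNA (SE 0.057, adjusted p = 0.00021). Other genes shared 25.0% of its 50-base words. HSPE1 (HSP10), the lid, had 72.4, 65.9 and 49.6 FPKM in the WB436B libraries, 56.5, 49.9 and 55.9 FPKM in the STAT3 siRNA libraries, and 33.4, 34.3 and 39.0 FPKM in the vehicle libraries. Both treated groups lay above vehicle and overlapped each other, with the third WB436B library lowest of the 6. HSPE1 rose by 0.78 under WB436B (SE 0.131, adjusted p = 0.00076) and by 0.59 after siRNA (SE 0.131, adjusted p = 0.0052). HSPE1 is short, and 52.9% of its 50-base words occur in other genes on either strand, among them HSPD1 (25.7%) and the read-through gene HSPE1-MOB4 (15.98%). HSPE1-MOB4 was listed at 0 in 6 of the 9 libraries and reached at most 0.908 FPKM.

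Set directly against STAT3 siRNA, WB436B libraries had higher levels of 6 transcripts, lower levels of 2, and 2 were not called. Among all tested genes, 20.0% were called higher and 44.1% lower in that comparison. The rise was at least 2-fold for 4, as it was for 2.09% of all genes. For the same 6 and 2 transcripts all 3 WB436B libraries lay above or below all 3 siRNA libraries, as was so for 22.7% and 47.5% of all genes. The differences were 1.55 for HSPA8 (adjusted p = 5.5e-07), 1.34 for HSP90AA1 (adjusted p = 6.4e-07), 1.08 for HSP90AB1 (adjusted p = 1.9e-07), 1.08 for DNAJA1 (adjusted p = 7.1e-07), 0.98 for HSPH1 (adjusted p = 5.4e-07) and 0.92 for HSPD1 (adjusted p = 3.2e-06). HSPA1A was lower by a difference of -0.93 (adjusted p = 3.7e-06) and HSPA1B by -0.95 (adjusted p = 2.6e-06). DNAJB1 differed by 0.08 (95% interval -0.107 to 0.268, adjusted p = 0.41). HSPE1 differed by 0.19 (95% interval -0.107 to 0.491, adjusted p = 0.23), and by 0.35 without the third WB436B library (adjusted p = 0.010). Both of these were called higher in WB436B with median-of-ratios scaling. Compound treatment was not set against a transfected control.

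The order of levels was led by HSP90AB1, HSP90AA1, HSPA8 and HSPD1 in every group. Under WB436B they averaged 886, 608, 546 and 249 FPKM, and HSPA8 was the 44th highest gene of the table. In vehicle they averaged 389, 226, 116 and 94.6 FPKM, and HSPA8 was the 230th. Further down, DNAJA1 (78.8 ± 4.0 FPKM), HSPA1A (77.3 ± 5.44 FPKM) and HSPA1B (73.5 ± 4.85 FPKM) in vehicle did not differ beyond their spread (SD, n = 3). HSPE1 (62.6 ± 11.7 FPKM) and HSPA1A (54.9 ± 1.23 FPKM) under WB436B did not either. HSPH1 was lowest of the 10 after siRNA and in vehicle, and DNAJB1 was lowest under WB436B. Together the 10 transcripts summed to 2753, 2724 and 2674 FPKM in the WB436B libraries, 1365, 1345 and 1392 FPKM in the STAT3 siRNA libraries, and 1102, 1122 and 1170 FPKM in the vehicle libraries. That is 0.987%, 0.491% and 0.391% of all FPKM in WB436B, siRNA and vehicle.

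Ratios taken within a library do not depend on scaling between libraries. HSPA1A relative to HSPA8 averaged 0.101 ± 0.0099 under WB436B, 0.572 ± 0.033 after STAT3 siRNA and 0.669 ± 0.084 in vehicle (SD, n = 3 each). WB436B did not overlap the other groups, while siRNA and vehicle overlapped. HSP90AA1 relative to HSP90AB1 averaged 0.686 ± 0.010 under WB436B, 0.573 ± 0.042 after siRNA and 0.582 ± 0.011 in vehicle, so the inducible form made up more of the pair under WB436B. HSPD1 relative to HSPE1 was 3.44, 3.80 and 5.02 in the WB436B libraries, 2.34, 2.50 and 2.46 in the siRNA libraries, and 2.64, 2.77 and 2.59 in the vehicle libraries. HSPA1B relative to HSPA1A stayed between 0.907 and 0.968 in all 9 libraries, and their shared sequence limits what it shows. For WB436B against vehicle the exact two-sided permutation p was 0.1 for each of the 4 ratios (0.1 adjusted over the 4), which is the smallest p that 3 libraries against 3 allow. For siRNA against vehicle the exact permutation p was 0.8 for the HSP90 ratio, 0.1 for HSPD1 to HSPE1, 0.2 for HSPA1A to HSPA8 and 0.3 for HSPA1B to HSPA1A. Adjusted over the 4, the permutation p was 0.8 for the HSP90 ratio and 0.4 for each of the others.

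**Figure D4:**
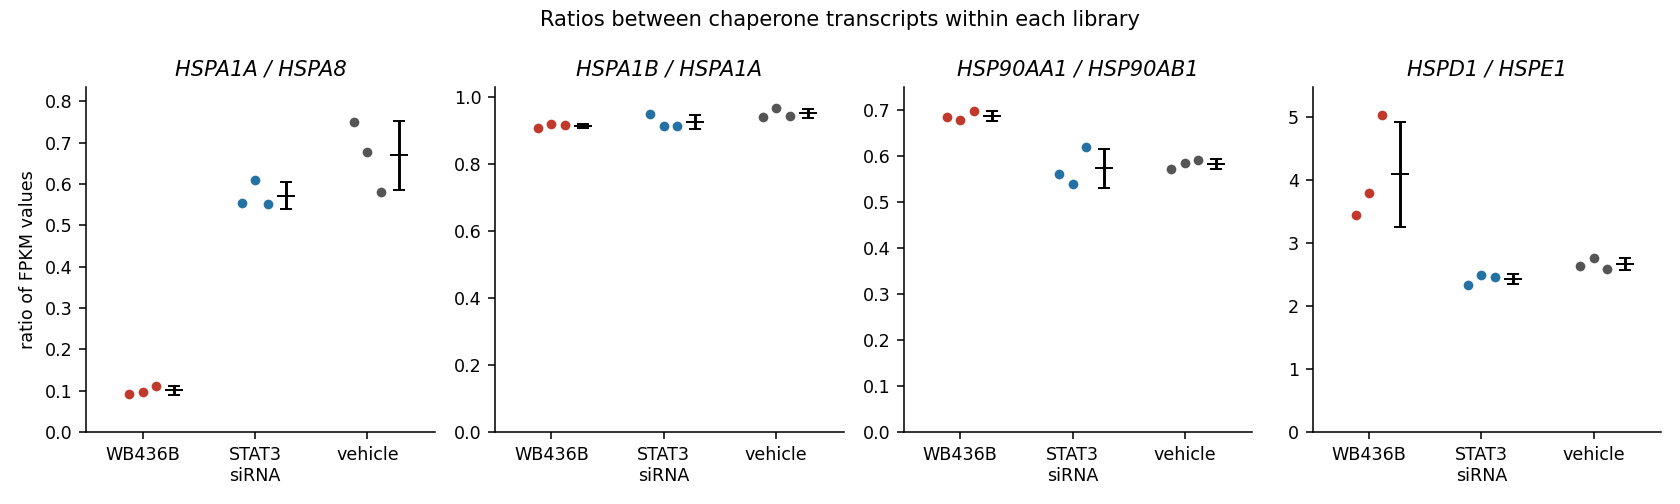
Ratio of FPKM between pairs of transcripts in each library (points), with group means and SD (bars), for WB436B, STAT3 siRNA and vehicle. The HSPA1A to HSPA8 ratio lies between 0.093 and 0.112 under WB436B and between 0.581 and 0.749 in vehicle.

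Across the 9 libraries, HSPA8 followed HSPD1 most closely among the other 9 transcripts (Pearson r = 0.995), then DNAJA1 (0.989), HSPH1 (0.982), HSP90AB1 (0.974), HSP90AA1 (0.964) and HSPE1 (0.821). The r was -0.391 with DNAJB1, -0.693 with HSPA1A and -0.734 with HSPA1B. Outside the 10, the 5 genes whose pattern was most like HSPA8 were CYR61, a secreted matrix protein (0.9986), ANXA3, an annexin (0.9968), CCT2, a subunit of the cytosolic chaperonin CCT (0.9961), EBNA1BP2, a nucleolar protein (0.9960), and TRIP13, an ATPase of the mitotic checkpoint (0.9957). They were taken from 420 candidates that averaged at least 10 FPKM and changed by at least 1 under WB436B. These values describe 3 group levels and the libraries share their groups, so no p is given.

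Small nucleolar RNAs of the SNORD14 family lie in HSPA8 introns. SNORD14E had 3.01, 2.51 and 1.57 FPKM in the WB436B libraries, 4.86, 4.82 and 4.77 FPKM in the STAT3 siRNA libraries, and 0.950, 0.738 and 0.092 FPKM in the vehicle libraries. SNORD14D had at most 0.247 FPKM in the WB436B libraries, 8.95, 7.07 and 10.2 FPKM in the siRNA libraries, and at most 1.65 FPKM in the vehicle libraries. SNORD14E differed from vehicle by 1.10 under WB436B and by 1.91 after siRNA. It passed the filter only through both treated groups, where it was high, so no p is given for it. SNORD14D passed the filter of 1 FPKM in 3 libraries only through the siRNA group, where it was high, so no p is given for it. Its difference from vehicle was 2.80 after siRNA and -0.32 under WB436B. Levels of both RNAs were lower under WB436B than after siRNA, the reverse of the HSPA8 order between these groups. SNORD14C, at 0.002 to 6.21 FPKM, did not reach the level for testing. These RNAs are far shorter than usual sequencing fragments, and fragments of unspliced HSPA8 could be counted for them, which was not tested.

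The rest of the chaperone network was described from lists of 96 other genes, of which 81 were tested. Under WB436B 45 of the 81 rose and 14 fell (median 0.30), and after siRNA 45 rose and 8 fell (median 0.29). Over all tested genes, 24.9% were called higher and 41.1% lower under WB436B (median -0.13), and 29.8% higher and 22.3% lower after siRNA (median 0.06), and the counts of each list below stand beside these shares. HSP90 co-chaperones rose in 13 of 16 genes under WB436B and fell in 1 (median 0.76), and rose in 11 and fell in 1 after siRNA (median 0.37). FKBP4, an immunophilin that links HSP90 to steroid receptors, averaged 69.0 ± 2.27 FPKM under WB436B, 43.4 ± 0.999 FPKM after siRNA and 20.8 ± 1.10 FPKM in vehicle (SD, n = 3 each). It rose by 1.68 (adjusted p = 5.9e-08) under WB436B and 1.02 (adjusted p = 1.3e-06) after siRNA. STIP1, which bridges HSP70 and HSP90, rose by 1.30 and 0.57, and AHSA1, which activates the HSP90 ATPase, by 1.31 and 0.61, under WB436B and after siRNA in that order. CHORDC1, an HSP90-binding protein, rose by 1.52 and 0.69 in the same order, and CDC37, the kinase-loading partner, by 0.74 and 0.41. PTGES3 (p23), which stabilises the closed form of HSP90, rose by 0.92 under WB436B (adjusted p = 0.002) and differed by 0.02 after siRNA (adjusted p = 0.94).

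All 8 subunits of CCT, the cytosolic chaperonin that folds actin and tubulin, rose in both conditions, with medians of 1.02 under WB436B and 0.50 after siRNA. CCT2 averaged 101 ± 0.840 FPKM under WB436B, 54.8 ± 1.17 FPKM after siRNA and 39.5 ± 1.68 FPKM in vehicle (SD, n = 3 each). Of 11 other mitochondrial chaperones and proteases, 5 rose and none fell under WB436B (median 0.32), and 6 rose and 1 fell after siRNA (median 0.36). HSPA9, the mitochondrial HSP70, rose by 0.59 under WB436B and 0.66 after siRNA, and TRAP1, the mitochondrial HSP90, rose by 0.97 and 0.70. Of 8 endoplasmic reticulum chaperones and partners, 1 rose and 3 fell in each condition (median -0.05 under WB436B and -0.06 after siRNA, beside -0.13 and 0.06 over all tested genes). HSPA5 (BiP), the reticulum's HSP70, fell by 0.52 under WB436B (adjusted p = 8.5e-06) and by 0.84 after siRNA (adjusted p = 1.6e-06). HSP90B1, the reticulum's HSP90, fell by 0.89 after siRNA (adjusted p = 2.7e-06), and its WB436B difference was -0.05 (adjusted p = 0.35).

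Among partners of HSP70, single genes moved in both directions. Of 3 tested relatives of HSP70 and HSP110, 3 rose under WB436B and 1 after siRNA. HSPA4, an HSP110-type exchange factor, rose by 0.75 under WB436B, and its siRNA difference was 0.06 (adjusted p = 0.27). HSPA4L rose by 0.28 under WB436B, and its siRNA difference was 0.08 (adjusted p = 0.2). HSPA6, HSPA2 and HSPA1L stayed under the level for testing. Of 11 other J-domain proteins, 6 rose and 3 fell under WB436B (median 0.29), and 4 rose and 2 fell after siRNA (median 0.07). These siRNA counts lay near the shares over all tested genes (29.8% higher, 22.3% lower, median 0.06), so nothing is read from them. Of the J-domain genes, DNAJB6, a suppressor of aggregation, rose by 0.58 under WB436B and 0.20 after siRNA. DNAJA4 fell by 0.61 under WB436B and differed by -0.13 after siRNA (adjusted p = 0.33). DNAJB4 rose by 0.38 after siRNA, and its WB436B difference was -0.13 (adjusted p = 0.069). Of 8 tested exchange factors and partners, 2 rose and 3 fell under WB436B (median -0.03), and 4 rose and 1 fell after siRNA (median 0.13). Over all tested genes the median was -0.13 with 24.9% called higher and 41.1% lower under WB436B, and 0.06 with 29.8% and 22.3% after siRNA, so the list's WB436B counts lay near the background and nothing is read from them. HSPBP1, an exchange factor, rose by 0.70 under WB436B and 0.61 after siRNA. BAG3, an exchange factor that routes clients to autophagy, fell by 0.67 after siRNA (adjusted p = 6.5e-06) and differed by 0.06 under WB436B (adjusted p = 0.26). STUB1 (CHIP), the ubiquitin ligase of the system, rose by 0.20 after siRNA (adjusted p = 0.044) and differed by 0.07 under WB436B (adjusted p = 0.44), and its siRNA call was lost in 13 of 23 alternative settings. ST13 rose by 0.11 under WB436B (adjusted p = 0.023), but that call was lost in 5 of 23 alternative settings and its sign turned under 1 more, quantile scaling. It differed by 0.06 after siRNA (adjusted p = 0.19).

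Small heat-shock proteins, which hold unfolded proteins without ATP, were represented by 3 tested genes of 10. Of these, 1 rose and 1 fell under WB436B (median -0.02), and 1 rose after siRNA (median 0.13), too few to set against the shares over all genes. HSPB1 (HSP27) averaged 147 ± 6.30 FPKM under WB436B, 330.2 ± 13.2 FPKM after siRNA and 302 ± 13.7 FPKM in vehicle (SD, n = 3 each). It fell by 1.04 under WB436B (adjusted p = 7.3e-07), and its siRNA difference was 0.13 (adjusted p = 0.07). CRYAB was below the level for testing. HSF1 rose by 0.20 under WB436B (adjusted p = 0.015) and by 0.52 after siRNA (adjusted p = 0.00012). HSF2, a related factor, rose by 0.26 (adjusted p = 0.024) and by 0.45 (adjusted p = 0.0022) in the same order. The WB436B call of HSF2 was lost in 3 of 23 alternative settings, and that of HSF1 in 1 of 23. The list of 5 heat-shock factors and their regulators had 2 risers and 2 fallers under WB436B (median -0.13, the same as over all tested genes), and 3 risers and no faller after siRNA (median 0.42, beside 0.06). Of 16 tested textbook HSF1 targets outside the 10, which share some genes with the other lists, 9 rose and 2 fell under WB436B (median 0.55), and 12 rose and 1 fell after siRNA (median 0.49). The 2 that fell and the 12 that rose both include HMOX1. That gene passed the filter only through the siRNA group, where it was high, so its calls carry no weight. SERPINH1 (HSP47), the collagen chaperone, rose by 0.55 under WB436B and 0.66 after siRNA. The polyubiquitin gene UBB rose by 0.29 after siRNA. Its WB436B difference was 0.16 (adjusted p = 0.056) and was not called, but it was called in 8 of 23 alternative settings.

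**Figure D5:**
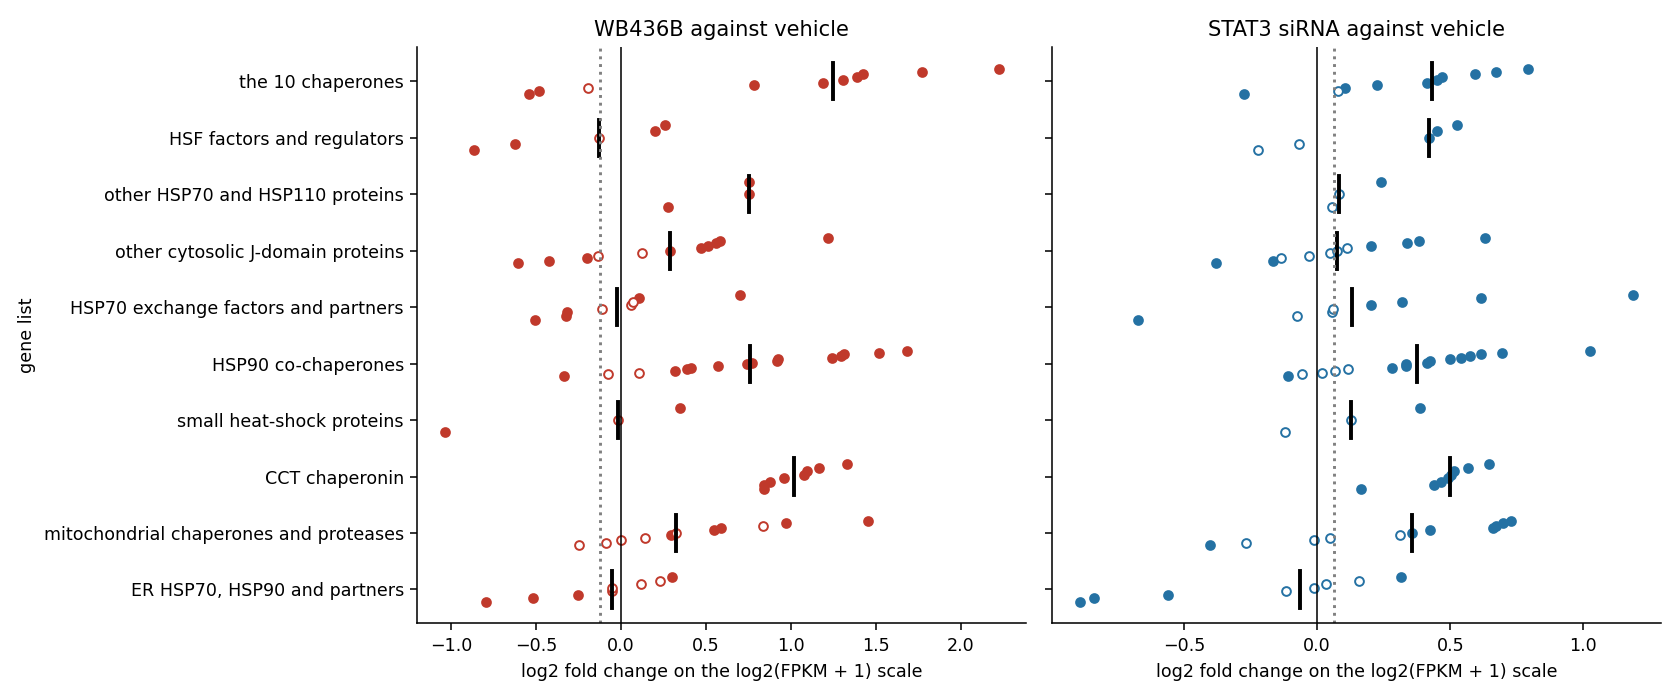
Log2 fold changes against vehicle under WB436B (left) and after STAT3 siRNA (right) for the 10 transcripts and the other chaperone lists. Each point is a gene, filled where called, black bars are list medians and the dotted line is the median of all tested genes. All 8 CCT subunits lie above 0 in both panels, and the ER list has its median near 0.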

How the data were processed

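The authors deposited 1 table of FPKM values (fragments scaled by transcript length and by mapped fragments), with a column per library and 3 columns per group. Per the submitters' processing notes, the tools include Bowtie 0.12.2 and the build named is mm8, a mouse build, although the table holds human gene identifiers. The build and annotation behind the values are therefore uncertain, and no coordinate was taken from the table. Per the labels' protocols, RNA came from an RNeasy kit and libraries were made in the usual Illumina way. For read length and strandedness, nothing is stated in the sources used here.

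Because FPKM has lost the counts, a linear model was used. The log2(FPKM + 1) of the 12747 genes that reached 1 FPKM in 3 or more libraries was fitted with limma 3.58.1 in R 4.3.3, with a mean per group over all 9 libraries, 6 residual degrees of freedom, a mean-dependent prior variance and Benjamini-Hochberg adjustment, and was tested on simulated data. The pseudocount makes fold changes of low genes too small. Ratios within libraries were tested by exact permutation. Depth was estimated from steps between the low values of genes with 1 transcript of 1000 to 5000 bases. Of values under 10 fragments, 41.0% to 45.8% came within 0.1 of a whole number and most did not, so the depths are rough. Depth limits only the precision of low genes. Words of 50 bases shared between genes were counted over human reference transcripts, and promoter windows came from RefSeq. The genes named besides the 10 chaperones are those of a fixed list of partners and HSF1 targets, whatever their values, and the 5 genes most like HSPA8. 1 gene of that list is not reported here. The chaperones, the lists and the tests were chosen with earlier results of these data known. Alternatives changed the pseudocount, the filter, the scaling, the test's prior and the libraries used.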

Additional observations from a re-analysis of the deposited data

Results flagged for a closer look

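Differences between the WB436B and STAT3 siRNA effects of opposite sign against vehicle, tested directly, were flagged for 4 genes among the 10 transcripts and the genes described one by one. HSPA1A and HSPA1B were lower under WB436B and higher after siRNA, and differed by -0.93 and -0.95 between WB436B and siRNA (limma, adjusted p = 3.7e-06 and 2.6e-06). DNAJA2, a J-domain partner of HSP70, rose by 0.29 under WB436B (adjusted p = 0.00032) and fell by 0.17 after siRNA (adjusted p = 0.0099), a difference of 0.45 (adjusted p = 2.6e-05). BAG1, an exchange factor for HSP70, fell by 0.51 under WB436B (adjusted p = 0.0023) and rose by 1.19 after siRNA (adjusted p = 3.1e-05), a difference of -1.69 (adjusted p = 2.8e-06). All 3 libraries of each treated group lay on the stated side of all 3 vehicle libraries for these genes. Over all tested genes, 24.9% were called higher and 41.1% lower under WB436B, and 29.8% and 22.3% after siRNA. Libraries lay wholly above vehicle for 26.8% and below for 43.3% of tested genes under WB436B, and for 35.1% and 25.3% after siRNA. Opposite calls were not counted over all tested genes, so nothing is read from the number flagged. The rest of the chaperone and heat-shock lists was not screened in that way. Of those genes, TOMM34 was also called higher under WB436B (1.24) and lower after siRNA (-0.11). BAG4, HSF4 and DNAJB9 were called lower under WB436B (-0.26 to -0.87) and higher after siRNA (0.32 to 0.42). HMOX1 averaged 0.451 FPKM under WB436B, 1.34 FPKM after siRNA and 0.729 FPKM in vehicle. It passed the filter only through the siRNA group, where it was high, so its calls are not used here. The causes of these differences were not tested.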

How the results depend on the processing

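Of 30 differences for the 10 transcripts, 25 kept their direction and their side of the threshold in every alternative run. The others were HSP90AB1 and DNAJB1 after siRNA, DNAJB1 under WB436B against either group, and HSPE1 between WB436B and siRNA. In all, 661 of 687 values were unchanged in call, 18 lost it, 7 gained it and 1 reversed. With a filter of 5 FPKM, fewer genes were tested, and 2382 genes were higher and 1756 lower after siRNA, 2412 lower under WB436B, and 2583 lower in WB436B than in siRNA. Median-of-ratios scaling raised the median of all genes by 0.126 for WB436B against vehicle and by 0.183 for WB436B against siRNA. The medians of the 10 transcripts were then 1.41 and 1.18, and 4019 genes were higher in WB436B than in siRNA. Calls that were higher made up 37.7% of calls for WB436B against vehicle, 49.95% with median-of-ratios and 53.0% with quantile scaling, and 31.2%, 50.6% and 49.99% for WB436B against siRNA. Quantile scaling gave medians of 1.16 and 0.83, 3585 genes lower in WB436B than in siRNA, HSP90AB1 at -0.12 after siRNA and ST13 at -0.043 under WB436B. Equal totals over all other genes gave a median of 1.33 under WB436B. The 10 transcripts summed to 2775 FPKM under WB436B with equal totals, 2958 with median-of-ratios and 2785 with equal totals over the other genes, and to 1265 after siRNA with median-of-ratios. Summing HSPA1A and HSPA1B, an alternative chosen after seeing the data, left 1 transcript row lower in WB436B than in vehicle and than in siRNA. With no filter, 0 of the 10 transcripts were called lower after siRNA by limma, DNAJB1, at an adjusted p of 0.054, being the 1 with an unadjusted p below 0.05 in that direction, and leaving out a library gave 0 to 1. Counting matches of 3 units only gave 5 genes instead of 8. The cause was not tested for these changes.

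Deviations from the group mean correlated weakly between libraries with the same number (r from -0.085 to 0.158). Between vehicle and siRNA, same-number r was 0.042, 0.119 and 0.158, above every different-number r (-0.124 to 0.014). Same-number pairs with a WB436B library had r from -0.085 to 0.038. With 3 libraries a group, these values cannot settle whether the numbers pair the samples. With the replicate number as a block, 7 transcripts were higher and 1 lower after siRNA, and 7 and 2 under WB436B. With the block and median-of-ratios scaling, the medians were 1.41 and 1.18, 3893 genes were higher in WB436B than in siRNA, and 12 other chaperone genes were lower.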
